A study of Homo sapiens with 24 samples.

Results

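The AP-1 transcription factors FOS, FOSB, FOSL1, FOSL2, JUN, JUNB, JUND, ATF3 and BATF3 were chosen by gene symbol, and all 9 were found among the 26475 genes counted in each of 24 RNA-seq libraries. All 9 had enough reads to be tested in every comparison. The libraries came from 786-M1A and OS-LM1, metastatic derivatives of the VHL-mutant clear cell renal cell carcinoma (ccRCC) lines 786-O and OS-RC2. Cells of each line carried sgNTC18, by its name a non-targeting CRISPR guide, or one of the short hairpin RNAs against PAX8, shPAX8-1 and shPAX8-2, with 4 replicates in each of the 6 groups. Both lines were grown in RPMI with serum and harvested before full confluence. All groups shared the VHL-mutant background of their line.

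AP-1 is a dimer of basic leucine zipper (bZIP) proteins. FOS, FOSB, FOSL1 and FOSL2 cannot pair among themselves and bind DNA with a JUN protein, whereas JUN, JUNB and JUND also pair with one another. ATF3 and BATF3 are further partners of the JUN proteins. FOS, FOSB, JUN, JUNB and ATF3 are immediate-early genes, which growth factors, MAP kinases and stress switch on within minutes, while FOSL1, FOSL2 and JUND are usually expressed for longer. PAX8 is the transcription factor that marks the renal epithelial lineage.

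The sgNTC18 libraries carried a guide and the shPAX8 libraries a hairpin. A difference between shPAX8 and sgNTC18 libraries therefore cannot be told apart from a difference between these kinds of construct, or between experiments if the libraries were not prepared together, which is not given in the sources used here. The comparison of shPAX8-1 with shPAX8-2 lies within 1 kind of construct. Nothing states that the replicates were separate cultures, so p-values measure the spread between these samples, which may be technical. In bulk RNA, more cells with a transcript and more transcript per cell cannot be told apart.

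PAX8 followed the labels. In 786-M1A cells its level, as counts scaled to library size (CPM), was 341 ± 44.7 with sgNTC18, 18.7 ± 4.31 with shPAX8-1 and 42.4 ± 2.37 with shPAX8-2 (SD, n = 4 each). In OS-LM1 it had 259.9 ± 14.5, 78.2 ± 13.1 and 79.2 ± 13.7 CPM (SD, n = 4 each), so the line in which the hairpins left more PAX8 was OS-LM1. Library totals ran from 11634419 to 52059375 counts. In 786-M1A cells with shPAX8-1, replicates 1 and 2 stood apart from replicates 3 and 4, and members whose call depends on this are also given for either pair alone. PAX8, CDH6 and EPAS1, markers of renal epithelium and ccRCC, were present in all groups. CA9 was nearly absent from 786-M1A cells, at 0 CPM with sgNTC18, 0.0289 with shPAX8-1 and 0.0405 with shPAX8-2. Of the leukocyte and endothelial markers, 7 of 8 were under 1 CPM in every group. The exception was CD68, a lysosomal protein, with group means from 80.8 to 350 CPM. The 4 fibroblast markers COL3A1, DCN, LUM and PDGFRA summed to 0.586–0.946 CPM in OS-LM1 with sgNTC18, 15.4–19.1 CPM with shPAX8-1 and 4.13–4.97 CPM with shPAX8-2, and to 0.442–1.56, 3.24–8.67 and 4.05–7.63 CPM in 786-M1A cells. In 786-M1A cells this sum was almost all LUM, and COL3A1, DCN and PDGFRA were nearly absent from every group. In OS-LM1 with either hairpin most of it was COL3A1. Against sgNTC18 in OS-LM1, 4 markers were higher with shPAX8-1 and 3 with shPAX8-2 (edgeR adjusted p under 0.05). Of all genes tested, 35.6% and 34.3% were higher in these comparisons. DCN and PDGFRA had means under 1 CPM in every group, so their calls rest on few reads. The sums therefore moved with the same contrast as the AP-1 genes below, mainly through a different gene in each line. The part of these markers in the AP-1 results was not tested.

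The hairpins are shown because some AP-1 genes below differed between them. The listed strand of each is 22 bases long and reverse-complementary to PAX8 transcripts (GENCODE v44, GRCh38, minus strand of chromosome 2). shPAX8-1 lies at chr2:113241690-113241711, annotated as coding in some transcripts and untranslated in others, and matched 10 of 14 annotated PAX8 transcripts. shPAX8-2 lies at chr2:113218122-113218143, in untranslated sequence, and matched 7 of 14.
shPAX8-1: tgtgagtcaatgcttagtcggc
shPAX8-2: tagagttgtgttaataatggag

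Upstream sequences are shown for FOS, FOSB and JUN, the members that were higher with both hairpins in both lines, and for ATF3, the member whose difference between shPAX8 and sgNTC18 differed most between the lines. They are the 250 bases before the annotated start (RefSeq, GRCh38.p14), 5′ to 3′ on the strand of the gene, with matches in capitals. Searched on both strands were TGANTCA, the AP-1 site, TGACNTCA, the longer site of JUN–ATF dimers, and TGACGT, the core of the cyclic AMP response element bound by CREB and ATF proteins. TGACGTCA holds both of the last motifs. The FOS window is chr14:75278578-75278827 (plus strand), that of FOSB chr19:45467746-45467995 (plus strand), that of JUN chr1:58784048-58784297 (minus strand) and that of ATF3 chr1:212565157-212565406 (plus strand).
FOS: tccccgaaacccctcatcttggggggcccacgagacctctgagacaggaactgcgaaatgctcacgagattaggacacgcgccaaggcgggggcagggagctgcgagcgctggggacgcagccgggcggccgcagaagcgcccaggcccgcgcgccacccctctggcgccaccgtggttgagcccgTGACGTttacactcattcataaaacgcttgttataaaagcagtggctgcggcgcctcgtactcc
FOSB: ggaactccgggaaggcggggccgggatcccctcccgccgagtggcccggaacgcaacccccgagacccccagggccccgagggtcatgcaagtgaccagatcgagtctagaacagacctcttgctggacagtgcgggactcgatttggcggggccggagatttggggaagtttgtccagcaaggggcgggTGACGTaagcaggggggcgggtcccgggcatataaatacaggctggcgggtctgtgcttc
JUN: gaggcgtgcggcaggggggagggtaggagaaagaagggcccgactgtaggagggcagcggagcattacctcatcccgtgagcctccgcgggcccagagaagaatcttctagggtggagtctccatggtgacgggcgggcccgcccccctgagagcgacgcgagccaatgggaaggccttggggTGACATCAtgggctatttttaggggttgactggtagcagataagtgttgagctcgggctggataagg
ATF3: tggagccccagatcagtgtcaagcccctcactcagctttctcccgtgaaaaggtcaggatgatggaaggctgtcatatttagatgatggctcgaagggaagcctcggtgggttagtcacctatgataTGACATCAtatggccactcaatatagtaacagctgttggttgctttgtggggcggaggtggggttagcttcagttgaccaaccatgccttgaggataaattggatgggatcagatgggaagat

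TGACGT began 64 bases before the start of FOS and 60 bases before that of FOSB, and also 66 bases before that of FOSL2. TGACATCA began 67 bases before the start of JUN and 123 bases before the upstream start of ATF3. JUND held TGACGTCA at 200 bases and ACGTCA, the reverse complement of TGACGT, at 87 bases. JUNB and the downstream start of ATF3 held none of the motifs. No member's window held TGANTCA, although the listed strand of shPAX8-1 does. Windows were found for 7 of 9 members, the others being FOSL1 and BATF3. Of 35116 windows of the same length, 6.57% held TGANTCA, 6.87% TGACNTCA and 7.1% TGACGT. A match is a description of these letters and not a binding site.

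FOSL1, also called FRA1, was the most abundant AP-1 transcript in all 6 groups. Levels of different genes are compared here as TPM, a transcript abundance that accounts for transcript length. FOSL1 had mean levels of 281.5, 284.5 and 297.7 TPM in 786-M1A cells with sgNTC18, shPAX8-1 and shPAX8-2, and of 269.6, 260.8 and 289.5 TPM in OS-LM1. In each group its lowest library lay above the highest library of the next member. JUN, JUNB, JUND and FOSL2 followed, with group means from 23.1 to 107.2 TPM. ATF3 came after them, from 6.03 to 40.4 TPM, and in OS-LM1 with either hairpin it had a higher mean than FOSL2. FOS, FOSB and BATF3 were lowest, with group means from 0.348 to 8.48 TPM.

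The order of the middle members differed between groups. In 786-M1A cells with sgNTC18 the order was FOSL1, JUNB, JUN, JUND, FOSL2, ATF3, BATF3, FOS and FOSB, where JUNB and JUN, and FOS and FOSB, had overlapping ranges. In OS-LM1 with sgNTC18 it was FOSL1, JUN, FOSL2, JUNB, JUND, ATF3, BATF3, FOSB and FOS, where only JUN and FOSL2 overlapped. JUN came next after FOSL1 in 786-M1A cells with shPAX8-1, with shPAX8-2, where it overlapped JUNB, and in OS-LM1 with shPAX8-1, where it overlapped JUND. JUNB came next in OS-LM1 with shPAX8-2, overlapping JUN. FOSB lay above FOS and BATF3 in both lines with shPAX8-1.

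As a share of the summed TPM of the 9 genes, FOSL1 held 51.1% ± 0.87 (SD, n = 4) in 786-M1A cells with sgNTC18, 51.9% ± 4.0 with shPAX8-1 and 51.2% ± 2.9 with shPAX8-2. In OS-LM1 its share was 61.8% ± 3.1 with sgNTC18, 49.0% ± 7.6 with shPAX8-1 and 49.4% ± 2.0 with shPAX8-2 (SD, n = 4 each). The 4 FOS-family genes together held 70.6–75.0% in the OS-LM1 sgNTC18 libraries and 47.2–62.2% and 53.3–57.5% in the shPAX8-1 and shPAX8-2 libraries, which did not overlap the sgNTC18 libraries. The 3 JUN-family genes held 23.0–27.6% in OS-LM1 with sgNTC18, 30.9–43.7% with shPAX8-1 and 34.8–39.8% with shPAX8-2. ATF3 and BATF3 together held 1.8–2.1%, 6.73–10.3% and 5.51–8.7% in the same groups. In 786-M1A cells the FOS-family share was 58.0–59.2% with sgNTC18 and overlapped the ranges with shPAX8-1, 55.8–64.7%, and with shPAX8-2, 55.1–61.0%. The summed TPM of the 9 genes averaged 551, 548 and 583 in 786-M1A cells with sgNTC18, shPAX8-1 and shPAX8-2, and 434, 527 and 586 in OS-LM1.

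To ask whether AP-1 genes differed between shPAX8 and sgNTC18 cells, each hairpin was compared with sgNTC18 within its line by edgeR's quasi-likelihood test, with Benjamini-Hochberg adjustment over all genes tested and an adjusted p under 0.05 as the call. Both comparisons of a line use the same 4 sgNTC18 libraries. In 786-M1A cells with shPAX8-1, 4 of 9 members were higher (FOS, FOSB, JUN and ATF3) and 1 was lower (JUNB), against 36.1% higher and 34.5% lower among the 14452 genes tested. With shPAX8-2, 3 were higher (FOS, FOSB and JUN) and none lower, against 31.5% and 30.9% of genes. In OS-LM1 with shPAX8-1, 6 were higher (FOS, FOSB, JUN, JUNB, JUND and ATF3) and 1 was lower (FOSL2), against 35.6% and 35.8% of 15049 genes. With shPAX8-2, BATF3 joined them, making 7 higher and 1 lower against 34.3% and 34.1% of genes. Since most genes were called in each of these comparisons, the counts of higher members in 786-M1A lay near the background and those in OS-LM1 lay above it, while the counts of lower members lay below it in all 4 comparisons.

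The median log2 fold change of the members was 0.15 with shPAX8-1 and 0.34 with shPAX8-2 in 786-M1A cells, and 0.64 and 1.34 in OS-LM1. The medians over all genes tested lay between -0.01 and 0.03.

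**Figure D1:**
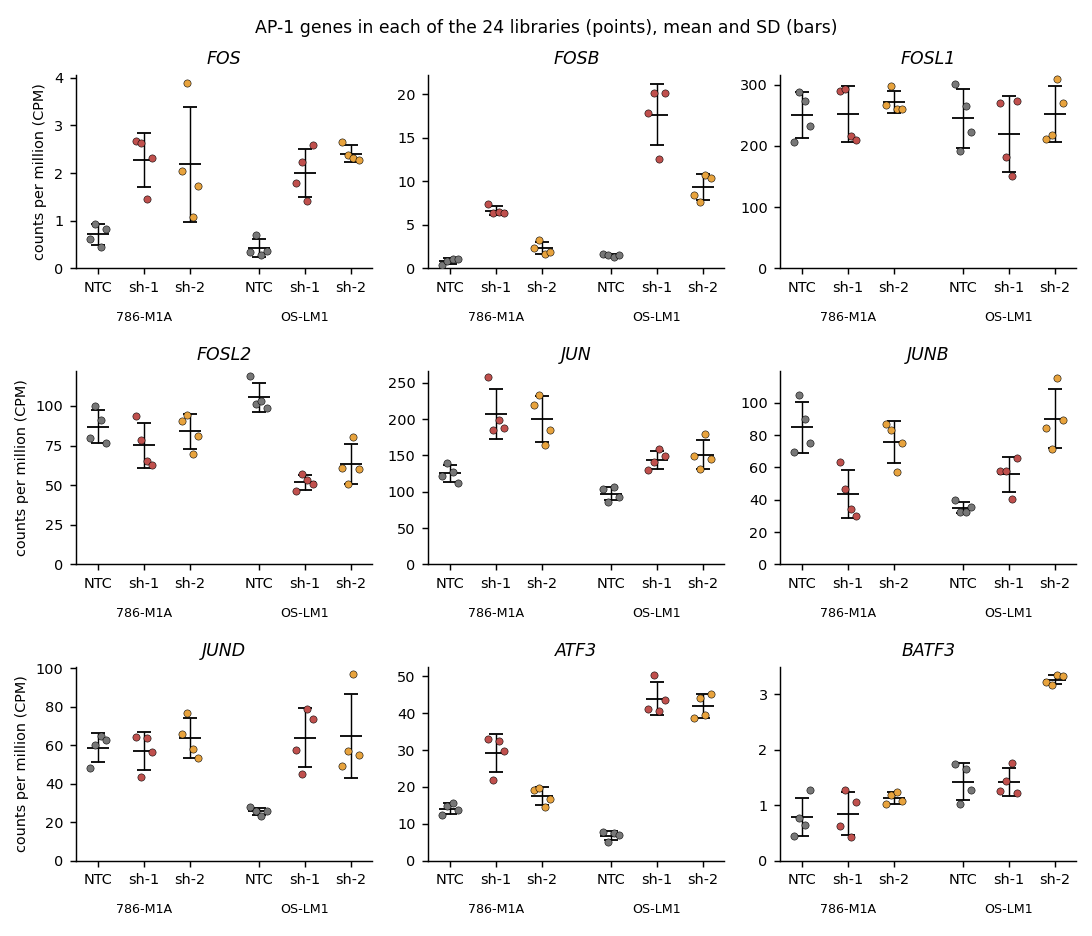
Level of each AP-1 gene in every library, in CPM, with 1 panel and axis scale per gene, points for the 4 replicates of each of the 6 groups (NTC, sgNTC18; sh-1 and sh-2, shPAX8-1 and shPAX8-2) and bars for the group mean and SD. FOS, FOSB and JUN have no sgNTC18 library as high as any shPAX8 library of the same line, whereas the FOSL1 groups overlap throughout.

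FOS, the founding immediate-early AP-1 gene, was near the lower limit of what was counted. In 786-M1A cells it had 0.616, 0.94, 0.453 and 0.834 CPM in sgNTC18 replicates 1 to 4, 2.67, 2.64, 1.45 and 2.32 CPM with shPAX8-1 and 2.05, 3.89, 1.08 and 1.73 CPM with shPAX8-2. In OS-LM1 it had 0.338, 0.703, 0.278 and 0.362 CPM with sgNTC18, 1.80, 2.22, 1.41 and 2.58 CPM with shPAX8-1 and 2.66, 2.39, 2.32 and 2.27 CPM with shPAX8-2. Every shPAX8 library lay above every sgNTC18 library of its line. The sgNTC18 values rest on 14 to 19 reads per library in 786-M1A cells and 10 to 24 in OS-LM1. The log2 fold change was 1.73 ± 0.37 (SE, edgeR adjusted p = 0.000659) with shPAX8-1 and 1.70 ± 0.37 (adjusted p = 0.00108) with shPAX8-2 in 786-M1A cells, and 2.22 ± 0.30 (adjusted p = 1.6e-06) and 2.50 ± 0.29 (adjusted p = 3.36e-07) in OS-LM1.

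FOSB, the FOS paralogue whose expression is strongly inducible, showed larger ratios with shPAX8-1. Its levels in 786-M1A cells were 0.329, 0.885, 1.10 and 1.05 CPM with sgNTC18, 7.43, 6.31, 6.5 and 6.35 CPM with shPAX8-1 and 2.33, 3.24, 1.66 and 1.93 CPM with shPAX8-2. In OS-LM1 they were 1.63, 1.58, 1.25 and 1.51 CPM with sgNTC18, 17.9, 20.2, 12.6 and 20.1 CPM with shPAX8-1 and 8.47, 7.64, 10.8 and 10.4 CPM with shPAX8-2. The 3 groups of each line did not overlap, with shPAX8-1 highest in both. The sgNTC18 values rest on 8 to 34 reads per library in 786-M1A cells and 45 to 58 in OS-LM1. Against sgNTC18 the log2 fold change was 2.98 ± 0.29 (SE, edgeR adjusted p = 2.39e-07) with shPAX8-1 and 1.47 ± 0.30 (adjusted p = 0.000597) with shPAX8-2 in 786-M1A. In OS-LM1 it was 3.54 ± 0.18 (adjusted p = 1.29e-12), an 11.6-fold difference, and 2.65 ± 0.18 (adjusted p = 1.15e-10).

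JUN, the main partner of FOS proteins, was higher by a smaller factor. In 786-M1A cells it had 121, 140.1, 128 and 113 CPM with sgNTC18, 258, 185, 198 and 188 CPM with shPAX8-1 and 219, 234, 164 and 185 CPM with shPAX8-2. In OS-LM1 it had 104, 86.5, 106 and 93.4 CPM, 129, 140.3, 158 and 149 CPM, and 149, 131, 180 and 145 CPM in the same order of groups. No shPAX8 library overlapped the sgNTC18 libraries of its line. The log2 fold changes were 0.75 ± 0.13 (SE, edgeR adjusted p = 0.000134) and 0.70 ± 0.13 (adjusted p = 0.000337) in 786-M1A cells and 0.54 ± 0.10 (adjusted p = 5.35e-05) and 0.64 ± 0.10 (adjusted p = 8.92e-06) in OS-LM1, for shPAX8-1 and shPAX8-2.

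JUNB, a JUN protein that activates transcription more weakly than JUN and can restrain it, was called in opposite directions in the lines. In 786-M1A cells it had 69.4, 104.6, 89.8 and 75.0 CPM with sgNTC18, 63.6, 46.5, 34.5 and 30.2 CPM with shPAX8-1 and 87.1, 82.9, 57.3 and 75.4 CPM with shPAX8-2. The shPAX8-1 libraries lay below all sgNTC18 libraries, while the shPAX8-2 libraries overlapped them. In OS-LM1 it had 39.8, 32.7, 32.2 and 35.6 CPM with sgNTC18, 58.0, 58.0, 40.7 and 66.0 CPM with shPAX8-1 and 84.5, 71.5, 115.5 and 89.4 CPM with shPAX8-2, and the 3 groups did not overlap. JUNB fell by 0.93 ± 0.21 on the log2 scale (SE, edgeR adjusted p = 0.00098) with shPAX8-1 in 786-M1A cells, a call that was lost when the GC trend was removed, and had a log2 fold change of -0.14 with shPAX8-2 (adjusted p = 0.571). In OS-LM1 its log2 fold change was 0.64 ± 0.14 (adjusted p = 0.000446) with shPAX8-1 and 1.37 ± 0.14 (adjusted p = 6.96e-08) with shPAX8-2.

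JUND, the JUN protein that most resting cells express, differed in OS-LM1. There it had 27.6, 25.6, 23.4 and 26.0 CPM with sgNTC18, 57.6, 45.1, 78.8 and 73.7 CPM with shPAX8-1 and 49.2, 56.9, 97.0 and 55.1 CPM with shPAX8-2. All hairpin libraries lay above the sgNTC18 libraries, and the hairpins overlapped each other. Its log2 fold change was 1.29 ± 0.20 (SE, edgeR adjusted p = 4.4e-05) with shPAX8-1 and 1.34 ± 0.20 (adjusted p = 3.38e-05) with shPAX8-2. In 786-M1A cells the groups overlapped, from 47.9 to 64.6 CPM with sgNTC18, from 43.2 to 64.2 CPM with shPAX8-1 and from 53.3 to 76.9 CPM with shPAX8-2. The log2 fold changes there were -0.03 (95% interval from the standard error, -0.32 to 0.27) and 0.13 (-0.16 to 0.43), and the first became 0.99 (adjusted p = 0.003) when the GC trend was removed. The 95% intervals here and below assume a normal distribution of the estimate, so with few libraries they are somewhat too narrow.

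FOSL1, which is linked to invasion and mesenchymal features in many carcinomas, did not differ past the threshold in any comparison with sgNTC18. Its libraries ran from 206.0 to 288.6 CPM with sgNTC18, from 209.3 to 292.6 CPM with shPAX8-1 and from 259.3 to 297.1 CPM with shPAX8-2 in 786-M1A. In OS-LM1 they ran from 191.1 to 301.1, from 151.5 to 272.8 and from 211.9 to 308.5 CPM. The ranges overlapped in both lines. The log2 fold changes were 0.03 (95% interval, -0.23 to 0.29) and 0.14 (-0.12 to 0.40) in 786-M1A cells and -0.18 (-0.56 to 0.19) and 0.05 (-0.32 to 0.42) in OS-LM1. With the GC trend removed, FOSL1 was called higher in 786-M1A cells, by 0.65 with shPAX8-1 and 0.32 with shPAX8-2 on the log2 scale.

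FOSL2, the closest relative of FOSL1, was the member that was lower in OS-LM1. It had 118.6, 102, 103 and 98.4 CPM there with sgNTC18, 46.0, 56.8, 53.5 and 50.5 CPM with shPAX8-1 and 61.1, 50.5, 80.6 and 60.2 CPM with shPAX8-2. Neither hairpin group reached the sgNTC18 libraries. It fell by 1.05 ± 0.12 on the log2 scale with shPAX8-1 (SE, edgeR adjusted p = 1.04e-07) and by 0.73 ± 0.11 with shPAX8-2 (adjusted p = 1.17e-05). In 786-M1A cells it ran from 76.8 to 99.7 CPM with sgNTC18, from 62.8 to 93.6 CPM with shPAX8-1 and from 69.5 to 94.0 CPM with shPAX8-2. These groups overlapped, with log2 fold changes of -0.19 (95% interval, -0.46 to 0.09) and -0.03 (-0.30 to 0.25). With only replicates 3 and 4 of shPAX8-1 in 786-M1A cells, the first was -0.42 and passed the threshold (adjusted p = 0.00837), and without replicate 1 alone it also passed.

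ATF3, a stress-induced member that can act as a repressor, differed most in OS-LM1. It had 7.78, 5.10, 7.46 and 6.90 CPM with sgNTC18, 41.1, 50.4, 40.7 and 43.5 CPM with shPAX8-1 and 38.6, 44.1, 39.7 and 45.4 CPM with shPAX8-2. The hairpin libraries overlapped each other and lay far above the sgNTC18 libraries. The log2 fold change was 2.67 ± 0.12 (SE, edgeR adjusted p = 4.17e-13) with shPAX8-1 and 2.63 ± 0.12 (adjusted p = 7.08e-13) with shPAX8-2.

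In 786-M1A cells ATF3 had 12.3, 14.8, 15.7 and 13.7 CPM with sgNTC18, 32.9, 21.8, 32.5 and 29.7 CPM with shPAX8-1 and 19.1, 19.8, 14.5 and 16.8 CPM with shPAX8-2. The shPAX8-1 libraries lay above both other groups, and shPAX8-2 replicate 3 lay within the sgNTC18 range. The log2 fold change was 1.07 ± 0.15 (SE, edgeR adjusted p = 1.26e-05) with shPAX8-1. With shPAX8-2 it was 0.34 ± 0.15 (adjusted p = 0.0631), which passed the threshold without replicate 3 of that group, or with the GC trend removed (adjusted p = 0.0384).

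BATF3, a bZIP factor best known from dendritic cells and lymphocytes that lacks a transactivation domain, was called in 1 of these comparisons. In OS-LM1 it had 1.75, 1.02, 1.64 and 1.26 CPM with sgNTC18, 1.26, 1.43, 1.77 and 1.21 CPM with shPAX8-1 and 3.22, 3.16, 3.34 and 3.33 CPM with shPAX8-2. The shPAX8-2 libraries lay above all others, and the remaining groups overlapped. The log2 fold change against sgNTC18 was 1.21 ± 0.20 with shPAX8-2 (SE, edgeR adjusted p = 2.94e-05) and -0.02 with shPAX8-1 (adjusted p = 0.924). In 786-M1A cells it ran from 0.452 to 1.27 CPM with sgNTC18, from 0.421 to 1.27 CPM with shPAX8-1 and from 1.02 to 1.24 CPM with shPAX8-2, on 7 to 29 reads per library. The log2 fold changes were 0.15 (95% interval, -0.58 to 0.87) and 0.55 (-0.18 to 1.27), and neither passed the threshold.

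**Figure D2:**
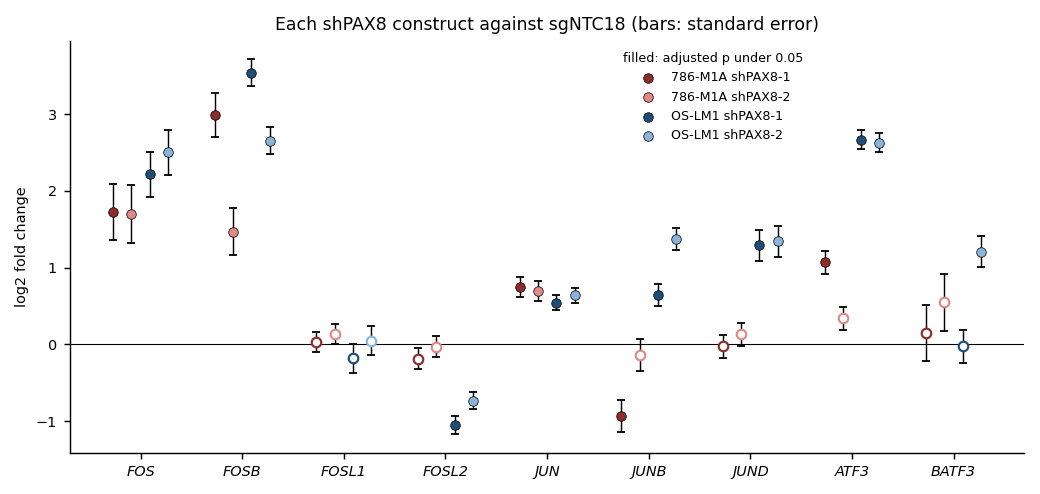
Log2 fold change of each AP-1 gene for shPAX8-1 and shPAX8-2 against the sgNTC18 libraries of the same line, with bars for the standard error; filled points had an adjusted p under 0.05. FOS, FOSB and JUN lie above 0 in all 4 comparisons, and JUNB lies on opposite sides of 0 in 786-M1A and OS-LM1 with shPAX8-1.

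The fold changes of these comparisons ran with the GC content of the transcript. Across genes, which are not independent replicates, Spearman's rho of log2 fold change with GC content was -0.36 for shPAX8-1 and -0.10 for shPAX8-2 in 786-M1A cells, and -0.32 and -0.28 in OS-LM1. The members differ in this respect, from 45.6% GC for BATF3 and 46.7% for ATF3 to 64.9% for JUNB and 69.9% for JUND, with FOSL1 at 58.7%. When a smooth GC trend was removed from each library, 6 members were higher and none lower with shPAX8-1 in 786-M1A cells, in place of 4 and 1, because FOSL1 and JUND were then called and JUNB was not. With shPAX8-2 in 786-M1A cells, 5 members were higher in place of 3, the additions being FOSL1 and ATF3. In OS-LM1 the counts stayed at 6 higher and 1 lower with shPAX8-1 and at 7 and 1 with shPAX8-2. FOS, FOSB and JUN remained higher in all 4 comparisons, with log2 fold changes after the correction from 1.78 to 2.65 for FOS, from 1.62 to 4.0 for FOSB and from 0.83 to 1.25 for JUN. JUNB with shPAX8-1 in OS-LM1 was 1.23 after the correction, against 0.64 before. The part of GC content in the other calls was not tested further.

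**Figure D3:**
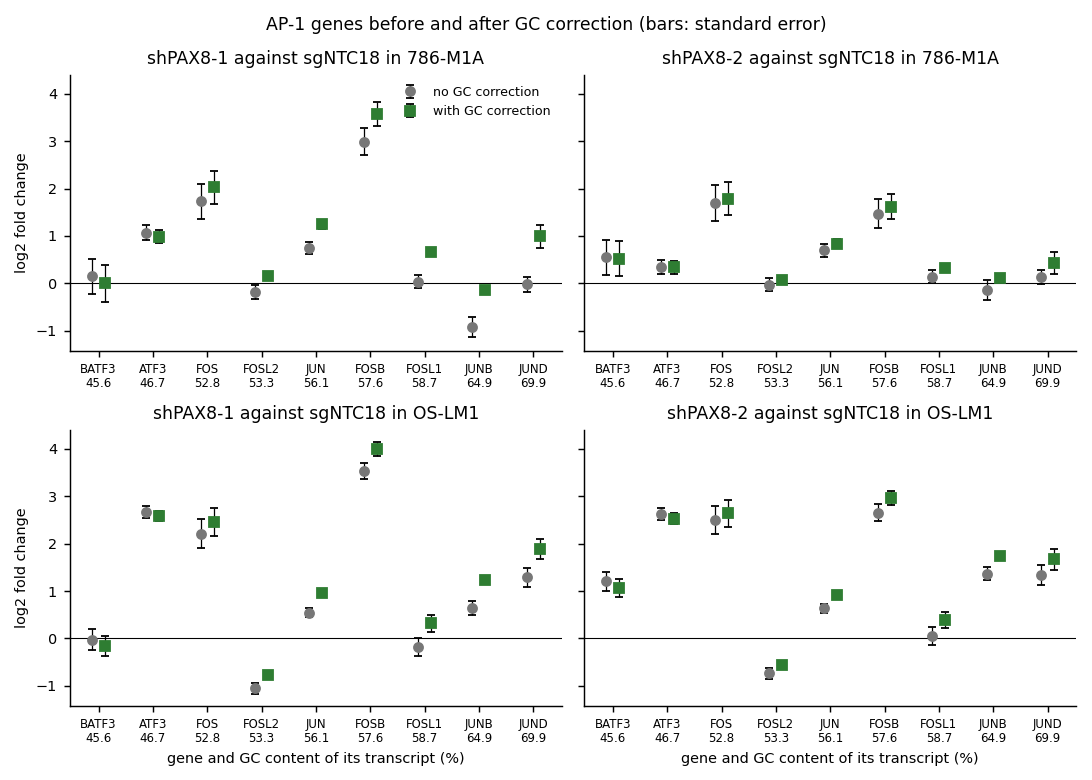
Log2 fold change of each AP-1 gene against sgNTC18 before and after the GC trend of each library was removed, 1 panel per comparison, with bars for the standard error and the genes ordered by the GC content of their transcripts in percent. In 786-M1A cells with shPAX8-1 JUND moves from -0.03 to 0.99, JUNB from -0.93 to -0.13 and FOSL1 from 0.03 to 0.65, while FOS, FOSB and JUN stay above 0 in every panel.

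The hairpins were then compared with each other within each line, which does not involve the difference in kind of construct. The difference taken was between the hairpin groups. The sgNTC18 libraries of the line were in the same fit, and so entered its filter, normalization and estimate of spread. In 786-M1A cells FOSB and ATF3 were higher and JUNB was lower with shPAX8-1 than with shPAX8-2, or 2 and 1 of 9 members against 24.2% and 22.9% of genes. In OS-LM1 FOSB was higher and FOSL2, JUNB and BATF3 were lower, or 1 and 3 members against 12.4% and 16.7% of genes. In 786-M1A PAX8 itself was lower with shPAX8-1 (log2 fold change -1.18 ± 0.15 (SE), edgeR adjusted p = 4.01e-05) while its difference in OS-LM1 was not called (-0.05, adjusted p = 0.797). The members' medians were -0.10 in 786-M1A cells and -0.23 in OS-LM1, against -0.02 and -0.03 over all genes.

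FOSB was higher with shPAX8-1 in both lines, by a log2 fold change of 1.51 ± 0.27 (SE, edgeR adjusted p = 0.000482) in 786-M1A cells and 0.88 ± 0.15 (adjusted p = 0.00023) in OS-LM1. JUNB was lower with shPAX8-1 in both lines, with log2 fold changes of -0.79 ± 0.21 (adjusted p = 0.00704) and -0.73 ± 0.14 (adjusted p = 0.000636). In 786-M1A cells the JUNB groups overlapped, since shPAX8-1 replicate 1 lay above shPAX8-2 replicate 3. With replicates 1 and 2 of shPAX8-1 alone the JUNB difference was -0.46 and no longer passed (adjusted p = 0.0741). It was -0.24 (adjusted p = 0.0207) in 786-M1A and -0.52 in OS-LM1 with the GC trend removed. With replicates 3 and 4 of shPAX8-1 alone FOSL1 (-0.35) and FOSL2 (-0.40) were also lower in 786-M1A.

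In 786-M1A ATF3 was higher with shPAX8-1 (log2 fold change 0.73 ± 0.15 (SE), edgeR adjusted p = 0.00139), while in OS-LM1 the difference was 0.04 (95% interval, -0.18 to 0.26). The difference between the lines was itself tested and was -0.66 on the log2 scale (edgeR adjusted p = 0.0116), the 1 of 9 members called there against 27.2% of genes called in either direction. With replicates 1 and 2 of 786-M1A shPAX8-1 alone it was -0.57 (adjusted p = 0.0602). With the GC trend removed 4 members were called in this test, all more negative in OS-LM1, FOSB (-0.91), ATF3 (-0.60), JUN (-0.38) and JUNB (-0.30). BATF3 was lower with shPAX8-1 in OS-LM1, with a log2 fold change of -1.23 ± 0.21 (SE, edgeR adjusted p = 0.000203), on groups that did not overlap. FOSL2 was lower there as well, at -0.32 ± 0.12 (adjusted p = 0.0422), a call that 6 of the 8 fits with 1 library left out did not keep, where it ranged from -0.41 to -0.16.

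FOS, JUN, JUND and FOSL1 did not differ between the hairpins past the threshold in either line. For FOS the difference was 0.03 (95% interval, -0.64 to 0.70) in 786-M1A cells and -0.29 (-0.80 to 0.22) in OS-LM1, and for JUN it was 0.05 (-0.21 to 0.31) and -0.10 (-0.29 to 0.09). The intervals for FOS are wide and those for JUN narrower, and neither shows that the hairpins act alike. With the GC trend removed, 4 members were higher and 1 was lower with shPAX8-1 in 786-M1A cells, JUN (0.42) and FOSL1 (0.34) being added, and 1 was higher and 2 were lower in OS-LM1. Spearman's rho of the fold change with GC content across genes was -0.56 in 786-M1A and -0.21 in OS-LM1.

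**Figure D4:**
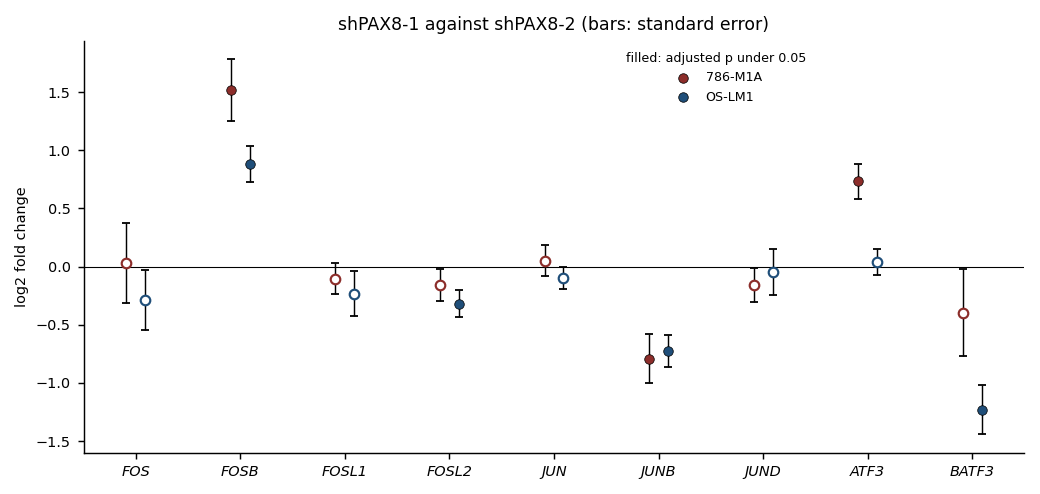
Log2 fold change of each AP-1 gene for shPAX8-1 against shPAX8-2 in 786-M1A and OS-LM1, with bars for the standard error; filled points had an adjusted p under 0.05. FOSB lies above 0 and JUNB below 0 in both lines, ATF3 lies above 0 in 786-M1A cells (0.73) and near 0 in OS-LM1 (0.04), and BATF3 is lower with shPAX8-1 in OS-LM1 (-1.23).

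Between the lines, AP-1 genes already differed with sgNTC18. FOSB and BATF3 were higher in OS-LM1 than in 786-M1A cells and JUN, JUNB, JUND and ATF3 were lower, or 2 and 4 of 9 members against 32% and 31% of 15665 genes. The log2 differences were 0.81 for FOSB (edgeR adjusted p = 0.00842), 0.86 for BATF3 (adjusted p = 0.0104), -0.36 for JUN (adjusted p = 0.0115), -1.27 for JUNB (adjusted p = 2.22e-06), -1.20 for JUND (adjusted p = 3.21e-06) and -1.05 for ATF3 (adjusted p = 3.87e-07). With the GC trend removed, 3 were higher and 2 lower, FOSL2 (0.38) being added and JUN (-0.17) and JUND (-0.17) lost, while JUNB became -0.60. The BATF3 call was lost without 786-M1A sgNTC18 replicate 1. Over both hairpins, FOSB, JUNB, ATF3 and BATF3 were higher in OS-LM1 and FOSL2 and JUN were lower, or 4 and 2 members against 41.7% and 41.5% of genes. The log2 differences were 1.71 for FOSB, 0.92 for ATF3, 1.13 for BATF3, -0.46 for JUN and -0.48 for FOSL2, with adjusted p-values between 3.72e-11 and 6.3e-05. That of JUNB, 0.30 (adjusted p = 0.0417), did not pass in 9 of the 16 fits with 1 library left out, where it ranged from 0.22 to 0.42, nor with DESeq2 (adjusted p = 0.0554) or its size factors (adjusted p = 0.0579), and was 0.11 (adjusted p = 0.413) with replicates 1 and 2 of 786-M1A shPAX8-1 alone. With the GC trend removed 5 members were higher and 2 lower, JUNB being 0.89 (adjusted p = 4.83e-15), JUND being added at 0.83 (adjusted p = 0.000136) and JUN becoming -0.25.

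JUNB, JUND and ATF3 were lower in OS-LM1 than in 786-M1A cells with sgNTC18, and with the hairpins ATF3 was higher, JUNB was higher with the limits given above, and JUND was called only with the GC trend removed. The difference between the lines in the effect of shPAX8, taken as the mean of both hairpins against sgNTC18, was called for 5 of 9 members against 58.7% of genes in either direction, so the count lay at the background. The difference was 1.97 for ATF3 (edgeR adjusted p = 2.97e-10), 1.57 for JUNB (adjusted p = 2.52e-06), 1.29 for JUND (adjusted p = 2.25e-05) and 0.90 for FOSB (adjusted p = 0.0144), each more positive in OS-LM1, and -0.76 for FOSL2 (adjusted p = 0.000343). The FOSB call was lost without 786-M1A sgNTC18 replicate 3 or 4, where the lowest value was 0.71. The differences for FOS, FOSL1, JUN and BATF3 did not pass the threshold.

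Genes linked to AP-1 were counted in lists chosen for their function. The background for every list is the share of all genes tested. In 786-M1A cells it was 36.1% higher and 34.5% lower with shPAX8-1, and 31.5% and 30.9% with shPAX8-2. In OS-LM1 it was 35.6% and 35.8% with shPAX8-1, and 34.3% and 34.1% with shPAX8-2. Every list gene named below passed the threshold, and values are log2 fold changes for shPAX8-1 and then shPAX8-2 against sgNTC18 unless stated. Immediate-early genes outside AP-1, which share the fast induction of FOS, numbered 20, of which 18 were tested in 786-M1A cells and 19 in OS-LM1. In 786-M1A cells 10 were higher and 3 lower with shPAX8-1 and 9 and 1 with shPAX8-2, and in OS-LM1 12 and 3 and 15 and 2. CTGF, a matrix protein whose gene responds to YAP and serum, was named by the rule in all 4 comparisons, with log2 fold changes of 2.61 and 2.02 in 786-M1A cells and 4.22 and 5.86 in OS-LM1. NR4A1, an orphan nuclear receptor, was higher by 1.89 and 1.87 in 786-M1A cells, and IER3, an early response gene, by 2.55 and 3.23 in OS-LM1. KLF10, a zinc finger factor, was lower in OS-LM1, at -0.28 and -0.70. Lower in 786-M1A cells were BTG2 and SRF with shPAX8-1, at -1.05 each, and KLF4 with shPAX8-2, at -0.73. For EGR1 the mean effect of both hairpins against sgNTC18 was more positive in OS-LM1 than in 786-M1A, the line difference being 3.34. Its mean levels with sgNTC18, shPAX8-1 and shPAX8-2 were 3.54, 1.10 and 3.99 CPM in 786-M1A cells. The means in OS-LM1 were 8.07, 32.6 and 73.5 CPM.

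The 24 other bZIP genes that can pair with AP-1 proteins or bind related sites had 22 tested members in each line. Of these 15 were higher and 3 lower with shPAX8-1 and 12 and 3 with shPAX8-2 in 786-M1A cells, and 13 and 4 and 12 and 7 in OS-LM1. ATF2, a JUN partner and stress-kinase substrate, was higher in all 4 comparisons, by 2.22 and 1.59 in 786-M1A cells and 1.34 and 1.64 in OS-LM1. NFE2L2, the regulator of the antioxidant response, was higher by 2.24 and 2.13 in OS-LM1. CEBPD, an acute-phase factor, was lower in OS-LM1, at -1.45 and -1.72, as was ATF5, a stress-response factor, in 786-M1A, at -1.52 and -1.11.

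The 18 MAP kinase feedback genes include phosphatases and Sprouty proteins, and also other genes such as ETV5 and PHLDA1. Of these 14 of 16 tested were higher and 2 lower with shPAX8-1 in 786-M1A cells, and 11 and 3 with shPAX8-2. In OS-LM1 14 of 17 were higher and 1 was lower with shPAX8-1, and 14 and none with shPAX8-2. DUSP6, the ERK phosphatase, was higher by 1.88 and 1.35 in 786-M1A cells, and SPRY4 by 3.13 and 3.39 in OS-LM1. DUSP14 was lower in 786-M1A cells, at -0.82 and -1.04, and DUSP10 was lower there with shPAX8-2, at -0.66. The 25 genes of the MAP kinase pathway itself were split in 786-M1A cells, with 9 higher and 10 lower with shPAX8-1 and 6 and 10 with shPAX8-2. In OS-LM1 more of them were higher than lower, 14 and 7 with shPAX8-1 and 13 and 7 with shPAX8-2. BRAF was higher by 1.73 and 1.53 in 786-M1A cells, EGFR by 1.73 and 1.90 in OS-LM1, and HRAS was lower in all 4, at -2.25, -2.03, -1.83 and -1.50.

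Of 24 genes described as AP-1 targets, 22 were tested in each line. In 786-M1A cells 11 were higher and 4 lower with shPAX8-1 and 10 and 10 with shPAX8-2, and in OS-LM1 15 and 4 and 14 and 5. MMP3, stromelysin-1, had the largest log2 fold change of the list in OS-LM1, 9.14 with shPAX8-1 and 5.43 with shPAX8-2, on 0.643 ± 0.163 CPM with sgNTC18, 370.9 ± 16 CPM with shPAX8-1 and 27.8 ± 2.76 CPM with shPAX8-2 (SD, n = 4 each). PLAUR, the urokinase receptor, was higher by 2.24 and 1.78 in 786-M1A cells. Between the hairpins MMP1, interstitial collagenase, and MMP3 were higher with shPAX8-1 in OS-LM1, by 4.98 and 3.71, and CXCL8, interleukin-8, by 2.99 in 786-M1A cells.

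Of 11 heat-shock genes, which report protein stress, 8 were higher and 1 lower with shPAX8-1 in 786-M1A cells, none and 4 with shPAX8-2, and in OS-LM1 6 and 3 and 7 and 3. Between the hairpins 9 were higher with shPAX8-1 in 786-M1A cells, against 24.2% of genes, and none was lower, against 22.9%. In OS-LM1 none was higher and 5 were lower, against 12.4% and 16.7% of genes, and 3 were lower when no filter on low counts was used. For shPAX8-2 against sgNTC18 in 786-M1A, 2 were higher and 5 lower with the GC trend removed. Over all genes, 70.6%, 62.5%, 71.4% and 68.4% were called in either direction in the comparisons with sgNTC18, in the order 786-M1A shPAX8-1 and shPAX8-2 and OS-LM1 shPAX8-1 and shPAX8-2. The lists' median log2 fold changes in that order were 0.50, 0.43, 0.57 and 0.93 for immediate-early genes, 0.82, 0.37, 0.39 and 0.55 for bZIP partners, 0.99, 0.69, 1.23 and 1.00 for feedback genes, 0.43, -0.06, 1.37 and 0.98 for AP-1 targets, -0.05, 0.04, 0.27 and 0.32 for the pathway and 0.47, -0.16, 0.28 and 0.39 for heat-shock genes.

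**Figure D5:**
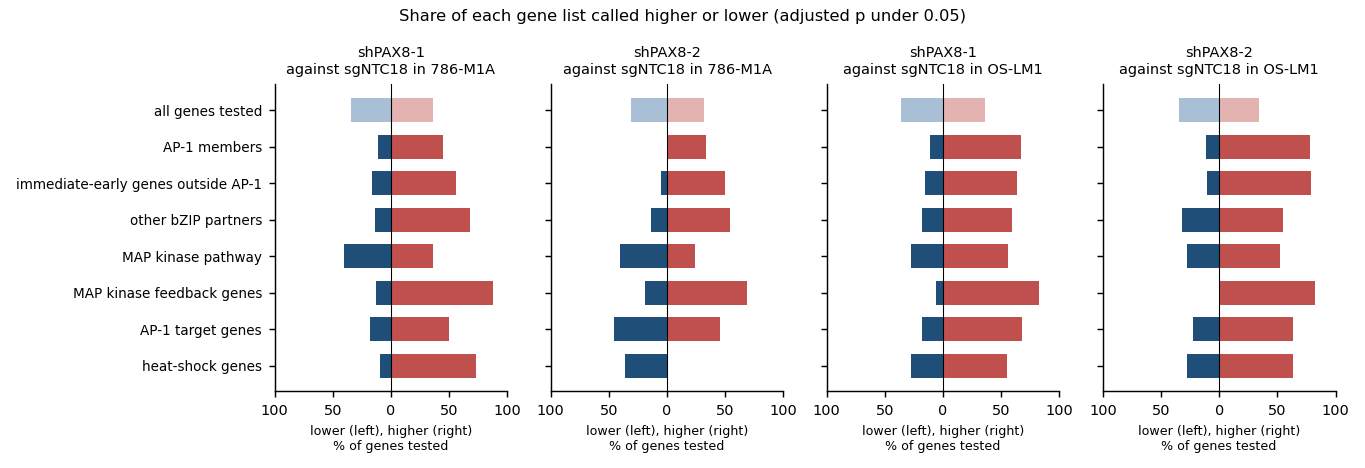
Share of the tested genes called higher (right) and lower (left) at an adjusted p under 0.05, in percent, among all genes, the AP-1 genes and each list linked to AP-1, for shPAX8-1 and shPAX8-2 against the sgNTC18 libraries of the same line. Most MAP kinase feedback genes are higher in all 4 comparisons (14 of 16, 11 of 16, 14 of 17 and 14 of 17), while AP-1 target genes split evenly with shPAX8-2 in 786-M1A cells (10 higher, 10 lower).

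Across the 24 libraries the levels of some members moved together. These correlations describe libraries that share line, construct and depth, so no p is given. Pearson's r of log2 CPM was 0.85 between ATF3 and FOSB, 0.80 between ATF3 and FOS, 0.75 between FOS and JUN and 0.72 between FOS and FOSB. FOSL2 ran against ATF3 (-0.80) and FOSB (-0.73). FOSL1 correlated little with the other members, with r between -0.12 and 0.43.

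Among the 9363 genes with a mean log2 CPM of at least 3, the pattern most like FOSB was that of MUC13 (r = 0.97) and SNAI2 (r = 0.96), that most like JUN was MAFF (r = 0.96), and that most like ATF3 was KLF9 and DDX24 (r = 0.96 each). FOSL2 was most like DHX34 (r = 0.96) and JUNB most like SH3PXD2A (r = 0.94). FOS had MEF2D (r = 0.91), JUND HPCAL1 (r = 0.88), BATF3 SAA1 (r = 0.88) and FOSL1 CHERP (r = 0.82) as their nearest genes.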

How the data were processed

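RNA-seq of 786-M1A and OS-LM1 cells with sgNTC18, shPAX8-1 or shPAX8-2 was used, with 4 libraries per group. The authors aligned reads with Bowtie2 to hg38 and deposited RSEM expected counts, TPM and FPKM per gene and library; versions and the annotation release are not given in the sources used here. The labels name a stranded poly(A) kit, whereas the study's methods name another supplier. The deposited expected counts were rounded to whole numbers and tested, the deposited TPM served to compare genes, and FPKM was not used. GC content was found for 87.5% of 26475 genes. Library totals were 11634419 to 52059375.

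Genes passing filterByExpr were fitted by edgeR 4.0.16 (R 4.3.3, TMM, robust quasi-likelihood), with 1 fit per line for comparisons within a line and 1 fit of all 24 libraries between lines. An adjusted p under 0.05 was the call. Alternatives were DESeq2 1.42.0, its size factors, no filter, 1 fit of all libraries, a GC trend per library removed by a spline with 5 degrees of freedom, a replicate block, and fits without single libraries or pairs of libraries. The scripts were tested on simulated data. Each library differed from its replicates by more than sampling noise (chi-square per gene 3.73 to 89.5). For 786-M1A shPAX8-1 the value was 14.1 and 3.73 within the pairs 1 and 2 and 3 and 4, and 44.7 to 77.4 across them. For 786-M1A shPAX8-2 it was 3.96 and 11.7 within the same pairs and 14.9 to 19.2 across them. Upstream sequences came from RefSeq.

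Named were all 9 members, PAX8, at most 2 genes each way per list (those with the largest absolute log2 fold change among called genes with a mean log2 CPM of at least 3) and up to 3 genes most like each member. The members, lists and tests were chosen with earlier results of these data known. Some genes that this rule selects are not reported here.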

Additional observations from a re-analysis of the deposited data

Results flagged for a closer look

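FOSB had 7.43 CPM in 786-M1A shPAX8-1 replicate 1, apart from the other 3 replicates at 6.31 to 6.5 CPM. JUND had 97.0 CPM in OS-LM1 shPAX8-2 replicate 3, apart from the other 3 at 49.2 to 56.9 CPM; this was the library with the largest total. Both gaps were past Dixon's 95% limit for 4 values. Among 54 groups of 4 checked, chance alone would pass about 2.7.

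The effect of shPAX8 against sgNTC18 differed between the lines by a test of the difference itself (edgeR, log2 scale, OS-LM1 minus 786-M1A) for ATF3 (1.97), JUNB (1.57), JUND (1.29), FOSB (0.90) and FOSL2 (-0.76). For ATF3 the difference between the hairpins also differed between the lines (-0.66).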

How the results depend on the processing

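The calls of FOS, FOSB and JUN against sgNTC18 were kept in both lines with both hairpins under every alternative run. Removing the GC trend moved the number of members called to 5 for shPAX8-2 against sgNTC18 in 786-M1A cells, 5 for the hairpins in 786-M1A cells and 4 for the line difference between hairpins. With the replicate block and the GC correction together the last 2 were again 5 and 4. With only replicates 1 and 2 of 786-M1A shPAX8-1 the line difference between hairpins held 0 members, and with only replicates 3 and 4 the hairpins in 786-M1A cells differed in 5. Leaving out single libraries moved no count past 1.5 times. Replicate numbers did not pair the libraries throughout (correlations of deviations -0.32 to 0.27). Between the hairpins in 786-M1A cells, same-numbered libraries had correlations of 0.037 to 0.271, with a mean of 0.17 against -0.057 for other pairs. A weak pairing is therefore not excluded in that comparison, and only the fits with the replicate block allow for it. Under the replicate block FOSL2 between the hairpins in OS-LM1 cells was -0.31 (edgeR adjusted p = 0.0804) and FOS between the lines with sgNTC18 was -0.76 (adjusted p = 0.0294), and no other member's call changed. The numbers of list genes called moved past 1.5 times in 4 cases under the GC correction, and in 4 with the replicate block added to it. They did so in 3 cases without the filter and 2 with 1 fit of all libraries. It was 1 case each with the replicate block alone and with the size factors of DESeq2. With only replicates 1 and 2 of 786-M1A shPAX8-1 it was 2, and with only replicates 3 and 4 it was 1.

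The directions that turned were of members not called in the main comparison, and the cause was not tested. Under the GC correction, shPAX8-1 against sgNTC18 in 786-M1A cells gave 0.15 for FOSL2, 0.99 for JUND and -0.003 for BATF3, shPAX8-2 gave 0.074 for FOSL2 and 0.10 for JUNB, and shPAX8-1 in OS-LM1 cells gave 0.32 for FOSL1. Between the hairpins it gave 0.34 for FOSL1, 0.075 for FOSL2 and 0.56 for JUND in 786-M1A cells and 0.046 for JUN and 0.23 for JUND in OS-LM1 cells, and between the lines with sgNTC18 0.28 for FOSL1. With the replicate block added these were 0.15, 0.95, -0.039, 0.071, 0.10, 0.30 (FOSL1), 0.34, 0.076, 0.50, 0.043, 0.21 and 0.27. For members not called between the lines with shPAX8, or in the line difference between hairpins, values are given for the GC correction alone. It turned FOSL1 from -0.15 to 0.17 and FOS from -0.04 to 0.02 between the lines, and JUNB from 0.09 to -0.30 (edgeR adjusted p = 0.0443) and JUND from 0.14 to -0.35 in the line difference. Without the filter FOSL1 with shPAX8-1 in 786-M1A cells was -0.04. With only replicates 1 and 2 of 786-M1A shPAX8-1, the hairpins differed by 0.11 for FOSL1 and 0.041 for FOSL2. With only replicates 3 and 4, shPAX8-1 against sgNTC18 gave -0.21 for FOSL1, 0.048 for JUND and -0.057 for BATF3, and against shPAX8-2 -0.25 for FOS and -0.061 for JUN.

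Leaving out single libraries turned directions within these ranges. Against sgNTC18 in 786-M1A cells they were -0.13 to 0.47 for BATF3, -0.055 to 0.11 for FOSL1 and -0.12 to 0.085 for JUND with shPAX8-1, and -0.088 to 0.058 for FOSL2 with shPAX8-2. In OS-LM1 cells they were -0.16 to 0.11 for BATF3 with shPAX8-1 and -0.062 to 0.15 for FOSL1 with shPAX8-2. Between the hairpins they were -0.18 to 0.47 for FOS and -0.082 to 0.13 for JUN in 786-M1A cells, and -0.018 to 0.095 for ATF3, -0.15 to 0.018 for JUN and -0.15 to 0.24 for JUND in OS-LM1 cells. Between the lines with sgNTC18 the range for FOSL1 was -0.14 to 0.076. FOS, FOSB and BATF3 are limited by depth in the sgNTC18 libraries of 786-M1A cells. FOS and BATF3 had under 30 reads in each of these libraries, and FOSB had 8 to 34. All 9 members passed the filter on low counts, so the separate test planned for members below it was not run.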
